A study of Rattus norvegicus with 15 samples.

Results

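The genes described here are those of cholesterol synthesis and of the sterol-sensing machinery around the transcription factor SREBP-2, in rat liver. The list names 30 genes, of which 28 had a probe set that the array annotation pairs with that gene alone, among 14218 gene symbols with such a probe set. Hmgcs1 and Npc1 are not analysed here. Where a gene had several probe sets (14 of the 28), the one with the highest mean over all 15 arrays stood for it. Of the 28, 27 passed the filter on dim probe sets and were tested. Soat1, which esterifies cholesterol in many tissues, lay below the filter level of -0.30 in mean and was not tested (means -1.19 in control, -0.82 with daidzein and -0.95 with genistein).

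The animals were male Sprague-Dawley rats, 4 weeks old at the start, given 5 days of adaptation and then 14 days of diet. The control diet held no isoflavone, the daidzein diet 2 g/kg daidzein and the genistein diet 2 g/kg genistein, and all 3 diets also held casein (200 g/kg) and palm oil (100 g/kg). Each diet had 5 Affymetrix arrays of total liver RNA, which the titles call biological replicates. Daidzein and genistein are soy isoflavones, and genistein carries an additional hydroxyl group. The study compares how the pair affect lipid metabolism in the liver.

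Cells make cholesterol from acetyl-CoA through mevalonate, farnesyl diphosphate, squalene and lanosterol. When sterols are low in the endoplasmic reticulum, the escort protein Scap carries SREBP-2 to the Golgi, where the proteases encoded by Mbtps1 and Mbtps2 release its active part, which raises transcription of the synthesis genes. Insig1 and Insig2 hold Scap back when sterols are plentiful. The liver is a main site of this synthesis.

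The deposited scores were converted to log2 units for levels and differences, the zero of a level is arbitrary, and levels of different genes cannot be compared. SD is that of the 5 arrays of a diet. The SE, the 95% confidence interval and the adjusted p come from 1 limma model over 15 arrays and 18625 probe sets, with Benjamini-Hochberg adjustment over all of them and a threshold of 0.05. Array medians of the deposited scores ran from 0.00111 to 0.127, the highest on control 1, and the arrays were quantile normalized. The label of genistein 3 has the unexplained ending "-re", and this array held the lowest level of 13 of the 27 tested members. All 5 hepatocyte markers lay above the filter level, with a summed level between 10.62 and 10.71 on every array. The brightest markers weigh most in this sum. Quantile normalization evens out the brightest levels between arrays, so the sum does not measure hepatocyte content. In whole liver, fewer cells of a type and less RNA per cell cannot be told apart.

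None of the 27 tested members passed the threshold in any of the 3 comparisons. With genistein against control, 21 of the 27 were lower and 6 higher, with a median log2 difference of -0.24, beside a median of 0.00 and 50.0% lower over all probe sets tested. The members had 16 other probe sets that passed the filter, of which 11 went the same way as the one that stood for the gene. Of all probe sets 0.322% were called, and 0.172% were called lower. These 60 calls became 10 without control 1 and 203 without genistein 4. Without adjustment, 8 members had a p under 0.05, all lower, where 11.0% of all probe sets had such a p, 5.50% lower and 5.45% higher. These were Msmo1, Sqle, Nsdhl, Mvd, Fdft1, Insig1, Ggps1 and Dhcr7. The adjusted p of the 27 ran from 0.0905 to 0.974 (limma).

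With daidzein against control, 16 of the 27 were lower and 11 higher, with a median of -0.06, beside 0.00 and 49.9% lower for all probe sets. Of the 16 other probe sets of the members, 10 went the same way as the one that stood for the gene. On the probe sets that stood for them, no member had an unadjusted p under 0.05, against 8.25% of all probe sets (4.14% lower and 4.10% higher). Of all probe sets 0.0161% were called (0% lower). The adjusted p of the members ran from 0.664 to 0.964 (limma). Both comparisons use the same 5 control arrays, so they are not independent.

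The direct comparison of the isoflavones, at the same dose and time, is the test of their difference for each of the 27 members. Genistein gave the lower mean in 20 members and the higher in 7, with a median difference of -0.12, beside 0.00 and 49.8% lower for all probe sets. Of the 16 other probe sets of the members that passed the filter, only 8 went the same way as the one that stood for the gene. No member was called, while 0.113% of all probe sets were, of which those called lower made up 0.0805% of all. The 21 calls became 3 without daidzein 3 and 136 without genistein 4. Dhcr7, Msmo1, Sqle and Mvk were lower and Npc2 higher at an unadjusted p under 0.05, where 9.37% of all probe sets had such a p, 4.73% lower and 4.64% higher. The arrays of the 2 diets overlapped for all 27 members, against 1.06% of probe sets with genistein entirely lower and 0.966% entirely higher. The lowest adjusted p was 0.156 (limma). A missed threshold does not show that the compounds act alike: 24 of the 27 intervals lay within 1 log2 unit of 0 on both sides, and those of Insig1, Acat2 and Dhcr7 reached below -1.

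**Figure D1:**
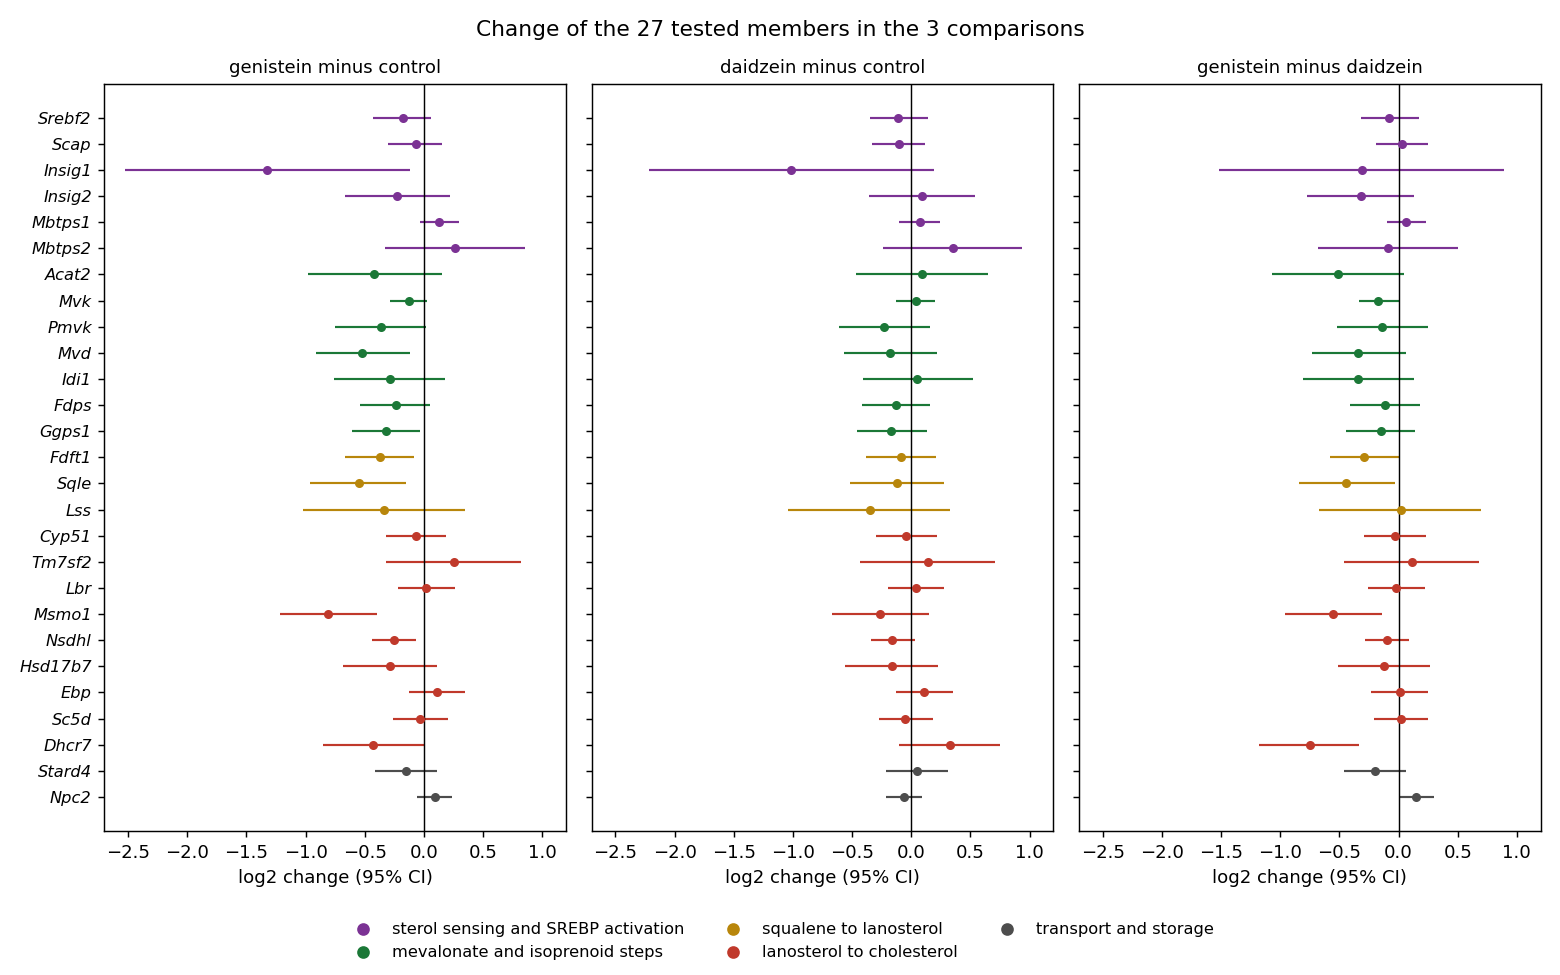
Log2 differences of the 27 tested members (points) with 95% confidence intervals (lines) in genistein minus control, daidzein minus control and genistein minus daidzein, coloured by role in the pathway. With genistein against control 21 points lie left of 0, the widest interval is that of Insig1, and no member passed the adjusted threshold.

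The first enzymes of the pathway make mevalonate and turn it into isoprenoid diphosphates. All 7 members tested here had lower means with genistein than in control on the probe sets that stood for them. The differences ran from -0.52 to -0.13 with a median of -0.32, and none was called. Mvd, the decarboxylase that makes isopentenyl diphosphate (Entrez gene 81726), stood at 1.54, 1.79, 2.13, 2.03 and 1.48 on control arrays 1 to 5. It stood at 2.02, 1.85, 1.60, 1.55 and 1.07 with daidzein, and at 1.60, 1.39, 0.97, 1.41 and 1.02 with genistein. All 5 genistein arrays lay below the control mean, while genistein 1 overlapped the controls. The difference from control was -0.52 ± 0.18 (SE, limma adjusted p = 0.305) with genistein and -0.18 ± 0.18 (adjusted p = 0.838) with daidzein.

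Mvk, mevalonate kinase (Entrez gene 81727), varied within a narrow band. Its control arrays stood at 1.81, 1.77, 1.85, 1.74 and 1.60, its daidzein arrays at 1.84, 1.92, 1.78, 1.79 and 1.62, and its genistein arrays at 1.58, 1.73, 1.50, 1.67 and 1.62. Every genistein array lay below the daidzein mean of 1.79 ± 0.11 (SD, n = 5), although daidzein 5 fell among the genistein values. The difference between the isoflavones was -0.17 ± 0.08 (SE, limma adjusted p = 0.518), and that of genistein from control -0.13 ± 0.08 (adjusted p = 0.577). A dimmer Mvk probe set gave -0.15 and -0.18 in the same order. Another, near the filter level with a mean of -0.05, went the other way, at 0.27 and 0.11. The direction of Mvk thus depends on the probe set.

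Idi1, the isomerase of isopentenyl diphosphate (Entrez gene 89784), stood at 2.88, 2.65, 3.67, 2.61 and 2.60 in control, at 3.57, 2.97, 2.51, 2.78 and 2.84 with daidzein and at 2.73, 2.76, 2.26, 2.76 and 2.44 with genistein. Control 3 and daidzein 1 were well above all other arrays, and the rest of the 3 diets overlapped. The genistein difference from control was -0.29 ± 0.22 (SE, limma adjusted p = 0.697), or -0.09 without control 3. The daidzein difference was 0.05, with -0.11 without daidzein 1 and 0.25 without control 3. A dimmer Idi1 probe set gave -0.19 with genistein and 0.19 with daidzein.

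The other members of this stretch also missed the threshold. Pmvk, phosphomevalonate kinase, had a mean of 3.72 ± 0.39 in control, 3.49 ± 0.12 with daidzein and 3.36 ± 0.33 with genistein (SD, n = 5). Fdps, farnesyl diphosphate synthase, had 7.13 ± 0.10, 7.00 ± 0.15 and 6.89 ± 0.34 in the same order. Without genistein 3 the genistein difference from control was -0.25 in place of -0.36 for Pmvk and -0.13 in place of -0.24 for Fdps. Ggps1, which makes geranylgeranyl diphosphate for protein prenylation, had a genistein difference of -0.32 ± 0.14 (SE, limma adjusted p = 0.411), or -0.21 without control 2. Another Ggps1 probe set, near the filter level with a mean of -0.13, went the other way, at 0.45 with an unadjusted limma p of 0.0229, so its direction depends on the probe set. Acat2, an acetoacetyl-CoA thiolase, differed by -0.42 with genistein and 0.09 with daidzein. It was lowest on genistein 3 (1.22), without which the genistein difference was -0.21.

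From squalene to lanosterol the pathway has 3 members, and each had a lower mean with genistein (-0.55 to -0.34) and with daidzein (-0.35 to -0.09) than in control, none of them called. Sqle, squalene epoxidase, a rate-limiting oxygenase (Entrez gene 29230), stood at 0.97, 1.45, 1.78, 1.19 and 0.85 in control. With daidzein it stood at 1.59, 1.18, 0.99, 1.05 and 0.83, and with genistein at 1.03, 0.53, 0.47, 0.96 and 0.47. Genistein 2, 3 and 5 lay below every control and daidzein array, while genistein 1 and 4 lay among them. The differences were -0.55 ± 0.19 for genistein against control (SE, limma adjusted p = 0.274), -0.12 ± 0.19 for daidzein against control (adjusted p = 0.899) and -0.44 ± 0.19 between the isoflavones (adjusted p = 0.490).

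Fdft1, squalene synthase, had means of 4.60 ± 0.31 in control, 4.52 ± 0.18 with daidzein and 4.23 ± 0.14 with genistein (SD, n = 5). Its genistein difference from control was -0.37 ± 0.14 (SE, limma adjusted p = 0.318), and a further probe set of the gene gave -0.35. Lss, lanosterol synthase, had a difference of -0.34 with genistein and -0.35 with daidzein, with the widest interval of the synthesis enzymes (-1.02 to 0.35 for genistein), and its other probe set gave 0.00 for both. Single arrays moved the genistein value of Lss to -0.13 (without genistein 1) and to -0.57 (without genistein 2).

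Between lanosterol and cholesterol, 6 of 9 members had lower means with genistein, with a median of only -0.07. Msmo1, the methylsterol oxidase that removes methyl groups from the ring (Entrez gene 140910), had the lowest p of all members against control. Its control arrays stood at 4.66, 4.88, 5.13, 5.26 and 4.46 and its genistein arrays at 4.25, 4.16, 3.75, 4.42 and 3.75. Every genistein array lay below every control array, which was so for 2 of the 27 members (Msmo1 and Nsdhl) and for 1.35% of all probe sets in that direction. No member lay entirely above control, as 1.21% of probe sets did. The daidzein arrays, at 5.10, 4.77, 4.43, 4.55 and 4.23, overlapped both diets. The means were 4.88 ± 0.33, 4.62 ± 0.33 and 4.07 ± 0.30 for control, daidzein and genistein (SD, n = 5).

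For Msmo1 the genistein mean was 1.75-fold lower than control, a log2 difference of -0.81 ± 0.19 (SE, 95% confidence interval -1.22 to -0.40, limma adjusted p = 0.0905). Its unadjusted p of 7.58e-04 ranked 156 among the 18625 probe sets. Without genistein 4 it was called, at -0.90 with an adjusted p of 0.0457, which was the only call of a member in any of the fits that left out an array. The daidzein difference was -0.26 ± 0.19 (SE, adjusted p = 0.744), and the isoflavones differed by -0.55 ± 0.19 (interval -0.96 to -0.14, adjusted p = 0.341).

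Nsdhl, the sterol dehydrogenase that acts with Msmo1 in demethylation (Entrez gene 309262), was unusually even in control, at 6.42, 6.48, 6.44, 6.44 and 6.39. It stood at 6.34, 6.37, 6.31, 6.24 and 6.13 with daidzein and at 6.27, 6.33, 5.86, 6.28 and 6.17 with genistein. All arrays of both isoflavone diets lay below all controls. For daidzein no other member did so, against 0.940% of all probe sets. The differences from the same control arrays were small, at -0.25 ± 0.09 for genistein (SE, limma adjusted p = 0.279) and -0.16 ± 0.09 for daidzein (adjusted p = 0.666). The gene's other probe set gave -0.32 and -0.25. Without genistein 3 the genistein difference was -0.17.

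Dhcr7, the reductase that makes cholesterol from 7-dehydrocholesterol (Entrez gene 64191), differed most clearly between the isoflavones. It stood at 4.60, 4.69, 5.15, 5.05 and 4.59 in control, at 5.36, 5.48, 5.09, 4.94 and 4.84 with daidzein and at 4.76, 4.40, 3.92, 4.88 and 3.98 with genistein. All 5 daidzein arrays lay above the control mean and all 5 genistein arrays below the daidzein mean, with only genistein 4 reaching into the daidzein range. The genistein mean was 1.69-fold lower than the daidzein mean, a log2 difference of -0.75 ± 0.20 (SE, interval -1.18 to -0.33, limma adjusted p = 0.156). Against control the difference was -0.43 ± 0.20 with genistein (adjusted p = 0.455, and -0.31 without genistein 3) and 0.33 ± 0.20 with daidzein (adjusted p = 0.695).

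**Figure D2:**
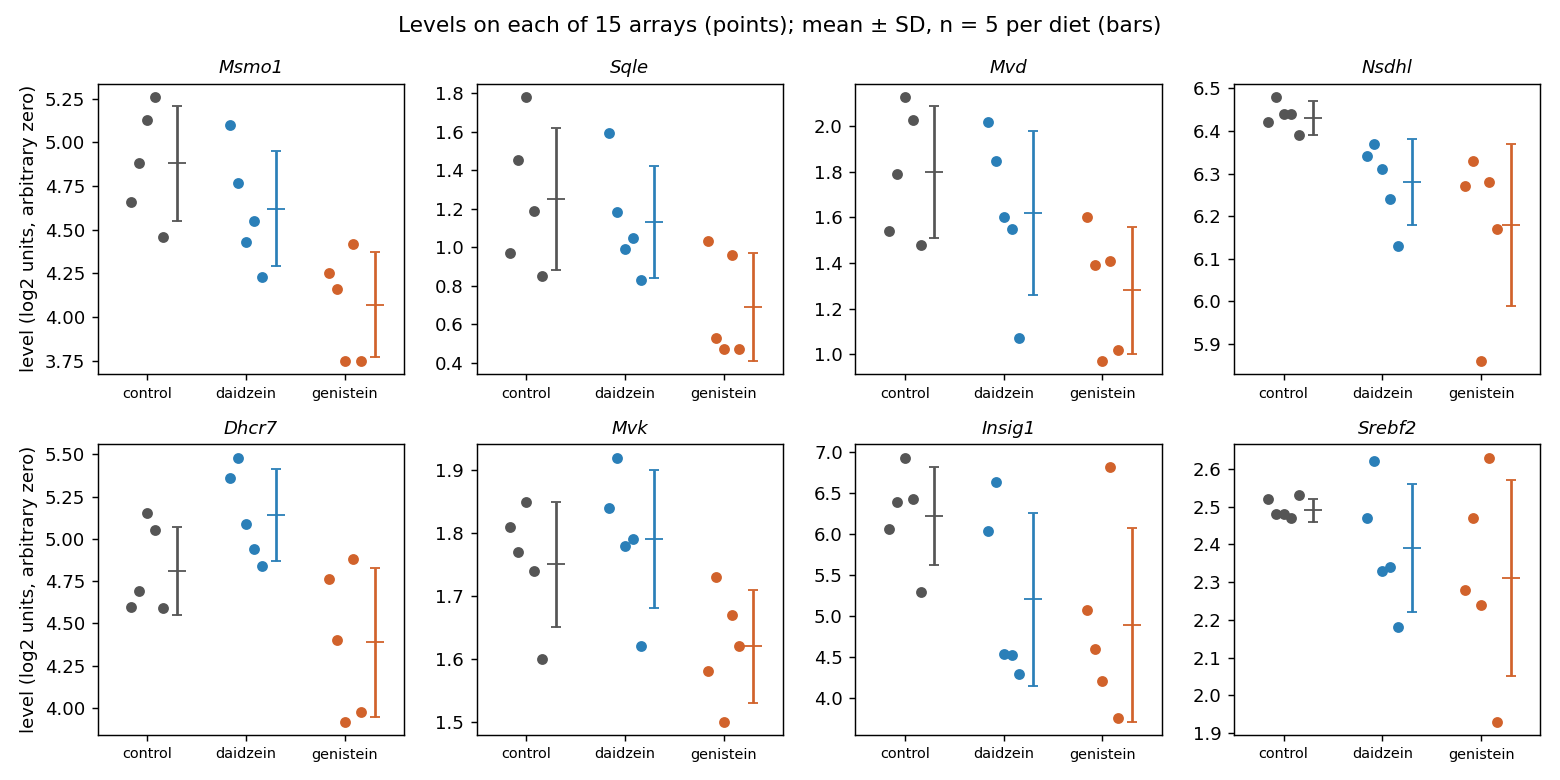
Levels of 8 members on each array (points, replicates 1 to 5 from left to right within a diet) with the mean and SD of 5 arrays beside them, in log2 units with an arbitrary zero and a separate axis per gene. The genistein arrays of Msmo1 (3.75 to 4.42) lie below all control arrays (4.46 to 5.26), those of Dhcr7 lie mostly below the daidzein arrays, and Insig1 spreads widely in both isoflavone diets.

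Cyp51, the demethylase that takes lanosterol into the later steps (Entrez gene 25427), showed little difference on the probe set that stood for it. It stood at 5.99, 6.01, 6.42, 6.15 and 6.05 in control, at 6.12, 6.20, 5.90, 6.16 and 6.04 with daidzein and at 6.13, 6.38, 5.80, 6.18 and 5.79 with genistein. The 3 diets overlapped throughout, and the genistein interval ran from -0.32 to 0.19. Its difference was -0.07 with genistein and -0.04 with daidzein. The sign of these and of the difference between the isoflavones (-0.03) turned in some fits with an array left out. A dimmer Cyp51 probe set gave -0.20 with genistein, -0.07 with daidzein and -0.13 between the isoflavones.

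The remaining enzymes of this stretch had differences on both sides of 0. Hsd17b7, a sterol ketoreductase, had -0.29 with genistein and -0.16 with daidzein, and Sc5d, the sterol desaturase, -0.03 and -0.05. A dimmer Sc5d probe set gave -0.77 with genistein and another gave -0.05, so the probe sets of Sc5d disagree in size. Ebp, the sterol isomerase, had 0.11 with each isoflavone. Tm7sf2 and Lbr both encode sterol reductases, the latter also a protein of the nuclear envelope. Tm7sf2 had 0.25 with genistein and 0.14 with daidzein, and Lbr 0.02 and 0.04. The genistein value of Tm7sf2 was 0.06 without genistein 2 and 0.42 without genistein 4, and that of Hsd17b7 was -0.14 without control 3. On the probe sets that stood for these 5 genes, the adjusted p lay at or above 0.631 in all 3 comparisons (limma).

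The promoters of the members were read for short motifs because SREBP-2 is known to act on sterol synthesis genes together with the CCAAT-binding factor NF-Y and with Sp1, which binds GC boxes. RefSeq promoter windows of build GRCr8, 300 bases long and spanning each gene start, were found for 24 of the 28 measured members. The 150 bases before the start are shown for Msmo1, Nsdhl, Mvd and Dhcr7, the first 3 for their p against control and Dhcr7 for its p between the isoflavones. They were chosen with these values known. No window was found for Sqle, Fdft1, Pmvk and Stard4, and Sqle had a lower p for genistein against control than Nsdhl and Mvd. Capitals mark matches to CCAAT or to GGGCGG on either strand (ATTGG and CCGCCC are their reverse forms).
Msmo1 (chr16:29746963-29747112, plus strand): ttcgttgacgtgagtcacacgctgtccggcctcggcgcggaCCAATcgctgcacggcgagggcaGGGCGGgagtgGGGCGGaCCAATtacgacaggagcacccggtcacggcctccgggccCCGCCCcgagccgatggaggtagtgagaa
Nsdhl (chrX:155817210-155817359, plus strand): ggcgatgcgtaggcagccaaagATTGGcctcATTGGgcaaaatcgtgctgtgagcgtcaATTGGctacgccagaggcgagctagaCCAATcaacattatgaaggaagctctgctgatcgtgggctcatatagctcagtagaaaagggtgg
Mvd (chr19:67414975-67415124, minus strand): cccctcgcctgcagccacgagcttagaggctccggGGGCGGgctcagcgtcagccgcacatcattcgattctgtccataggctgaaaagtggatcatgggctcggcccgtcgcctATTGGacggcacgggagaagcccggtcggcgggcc
Dhcr7 (chr1:208444284-208444433, plus strand): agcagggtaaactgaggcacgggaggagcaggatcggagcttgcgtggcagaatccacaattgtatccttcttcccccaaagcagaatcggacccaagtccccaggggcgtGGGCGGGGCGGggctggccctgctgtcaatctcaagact
The Msmo1 stretch held 2 CCAAT matches and 3 GC box matches, that of Nsdhl 4 CCAAT matches and 0 GC boxes, that of Mvd 1 of each, and that of Dhcr7 0 CCAAT matches and 2 GC boxes, which overlap.

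Over the full windows, CCAAT was present in 18 of the 24 member promoters (75.0%), in 37.7% of 27457 promoters of the genome and in 37.9% of 8945 promoters of genes tested on the array. GGGCGG was present in 19 of 24 (79.2%), in 34.9% of all promoters and in 61.2% of those of tested genes. The sterol element form TCACNCCAC was in 0 of 24 and in 1.13% of all promoters, and the shorter form CACCCCAC was in 1 of 24, that of Ebp, and in 2.57% of all, with both strands searched and overlap between these last forms allowed. A match is only a match of letters, and the absence of one says only that these letters are not in this window.

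Among the sterol sensors and SREBP-2 activators, 4 of 6 members had lower means with genistein and 3 of 6 with daidzein, and none was called. Srebf2, which encodes SREBP-2 itself (Entrez gene 300095), was the most even gene of the list in control, at 2.52, 2.48, 2.48, 2.47 and 2.53. With daidzein it stood at 2.47, 2.62, 2.33, 2.34 and 2.18, and with genistein at 2.28, 2.47, 2.24, 2.63 and 1.93. Both isoflavone diets spread on either side of the control values, with SDs of 0.17 and 0.26 against 0.03. The difference was -0.18 ± 0.11 with genistein (SE, limma adjusted p = 0.613) and -0.11 ± 0.11 with daidzein (adjusted p = 0.847). The genistein value of Srebf2 was -0.09 without genistein 5 and -0.26 without genistein 4. The model gives the 3 diets 1 common spread, and these SDs differ between them.

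Insig1, the sterol-regulated anchor of Scap and itself a target of SREBPs (Entrez gene 64194), had the largest differences from control of the list and the largest spread. It stood at 6.06, 6.39, 6.93, 6.42 and 5.29 in control, at 6.04, 6.63, 4.53, 4.52 and 4.29 with daidzein and at 5.07, 4.59, 4.21, 6.82 and 3.76 with genistein. Daidzein 3, 4 and 5 and genistein 1, 2, 3 and 5 lay below every control array, while daidzein 1 and 2 and genistein 4 lay within the control range. The genistein mean was 2.51-fold lower than control (-1.33 ± 0.56 SE, interval -2.53 to -0.12, limma adjusted p = 0.406) and the daidzein mean 2.02-fold lower (-1.02 ± 0.56, interval -2.22 to 0.19, adjusted p = 0.664). Without genistein 4 the genistein difference was -1.81 with an adjusted p of 0.111 (limma), and without genistein 5 it was -1.04 with an adjusted p of 0.598. The isoflavones differed by -0.31 with an interval of -1.52 to 0.89, which holds differences of over 1 log2 unit in the downward direction.

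Scap (Entrez gene 301024) stood at 2.52, 2.81, 2.75, 2.66 and 2.62 in control, at 2.34, 2.70, 2.63, 2.62 and 2.54 with daidzein and at 2.52, 2.97, 2.51, 2.51 and 2.48 with genistein. Apart from genistein 2, the highest of all 15, the genistein arrays lay at or below the control range. The differences were -0.07 and -0.10 for genistein and daidzein (SE 0.10 for both, limma adjusted p = 0.871 and 0.833), and a dimmer Scap probe set gave 0.08 and 0.10. Insig2, the other anchor, differed by -0.23 with genistein and 0.09 with daidzein. The genistein value was -0.04 without genistein 3 and -0.42 without genistein 5. The other Insig2 probe set gave -0.38 with genistein and -0.08 with daidzein, so the daidzein direction depends on the probe set. The protease genes had higher means with both isoflavones, Mbtps1 by 0.13 with genistein and 0.07 with daidzein and Mbtps2 by 0.26 and 0.35, with adjusted p at or above 0.580 (limma). The genistein value of Mbtps2 was 0.07 without genistein 2 and 0.50 without genistein 4.

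Of the genes that move or store sterols, Stard4, which carries cholesterol between membranes, differed by -0.15 with genistein and 0.05 with daidzein (for genistein -0.07 without control 3 or without genistein 3), and its probe sets disagreed in direction for genistein (0.18 and -0.10 on the others). Npc2, which hands cholesterol out of lysosomes, was the only member higher with genistein than with daidzein at an unadjusted p under 0.05. It had means of 4.89 ± 0.07 in control, 4.83 ± 0.10 with daidzein and 4.98 ± 0.08 with genistein (SD, n = 5), and the isoflavones differed by 0.15 ± 0.07 (SE, limma adjusted p = 0.527).

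The members were not equally low on all genistein arrays. The median deviation of the 27 members from their control means was -0.17, -0.03, -0.44, -0.10 and -0.31 on genistein 1 to 5, -0.02, 0.08, -0.13, -0.05 and -0.13 on daidzein 1 to 5 and -0.15, 0.05, 0.15, 0.08 and -0.10 on control 1 to 5. The median over all probe sets tested lay between -0.03 and 0.03 on each array. Genistein 3 and 5 lay below every other array, genistein 1 lay just below the lowest control and daidzein arrays, and genistein 2 and 4 overlapped the rest. On genistein 3, 23 of 27 members lay below their control mean, and as many did so on control 1, by less. Without genistein 3 the median difference of the members from control was -0.17.

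**Figure D3:**
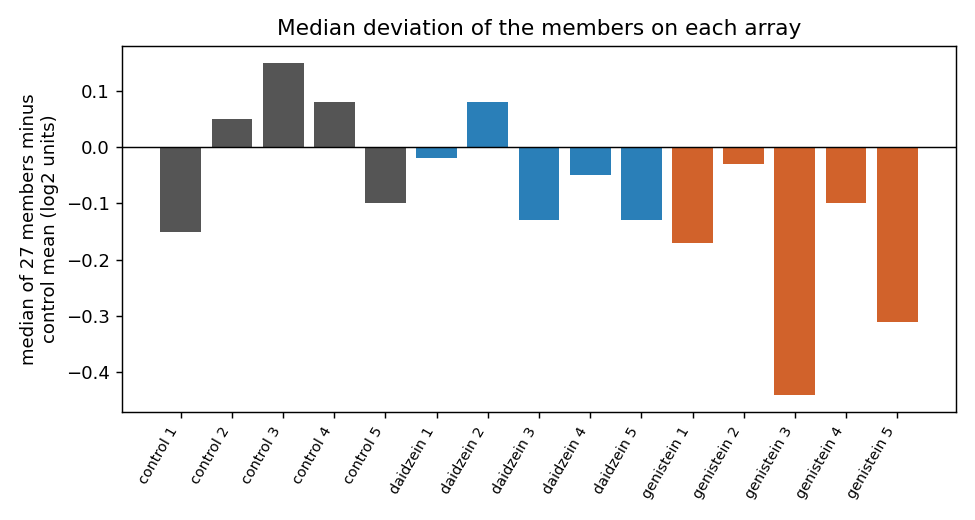
Median over the 27 tested members of the deviation from the control mean on each array (bars, log2 units), by diet and replicate. Genistein 3 (-0.44) and genistein 5 (-0.31) lie below all other arrays, while genistein 2 and 4 lie within the range of the control arrays (-0.15 to 0.15).

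The enzymes also varied together between animals within a diet. With diet means removed, the 171 pairs among the 19 synthesis enzymes had a median Pearson correlation of 0.44 over 15 arrays, beside 0.01 for pairs among all 18625 probe sets. The range was wide, from -0.53 to 0.93, and the median was 0.41 without genistein 3 and 0.44 without control 1. These are descriptions with no test, since the arrays share their hybridisation and normalization, and probe sets that share an animal are not independent.

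Set against the mean of the other enzymes, Fdps followed it most closely (Pearson r = 0.88, Spearman rho = 0.90), then Mvd (0.85 and 0.74), Pmvk (0.84 and 0.86) and Acat2 (0.84 and 0.83). Leaving out the 2 arrays farthest from the median of that mean gave r = 0.87 for Fdps and 0.84 for Mvd over 13 arrays. For Pmvk and Acat2 r fell to 0.74. In all, 14 of 19 enzymes reached an r of 0.5, or 12 without genistein 3. Lss (0.26), Lbr (0.28), Ebp (0.33), Tm7sf2 (0.10) and Ggps1 (-0.02) did not. Cyp51 belonged to the closely following enzymes (0.80) although its diet means hardly differed on the probe set used. Outside the enzymes, Stard4 (0.76), Insig1 (0.67) and Srebf2 (0.57) varied with the enzyme mean. Scap lay just short of 0.5 (0.49). Insig2 (0.13), Npc2 (0.02), Mbtps2 (-0.04) and Mbtps1 (-0.26) did not vary with it.

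**Figure D4:**
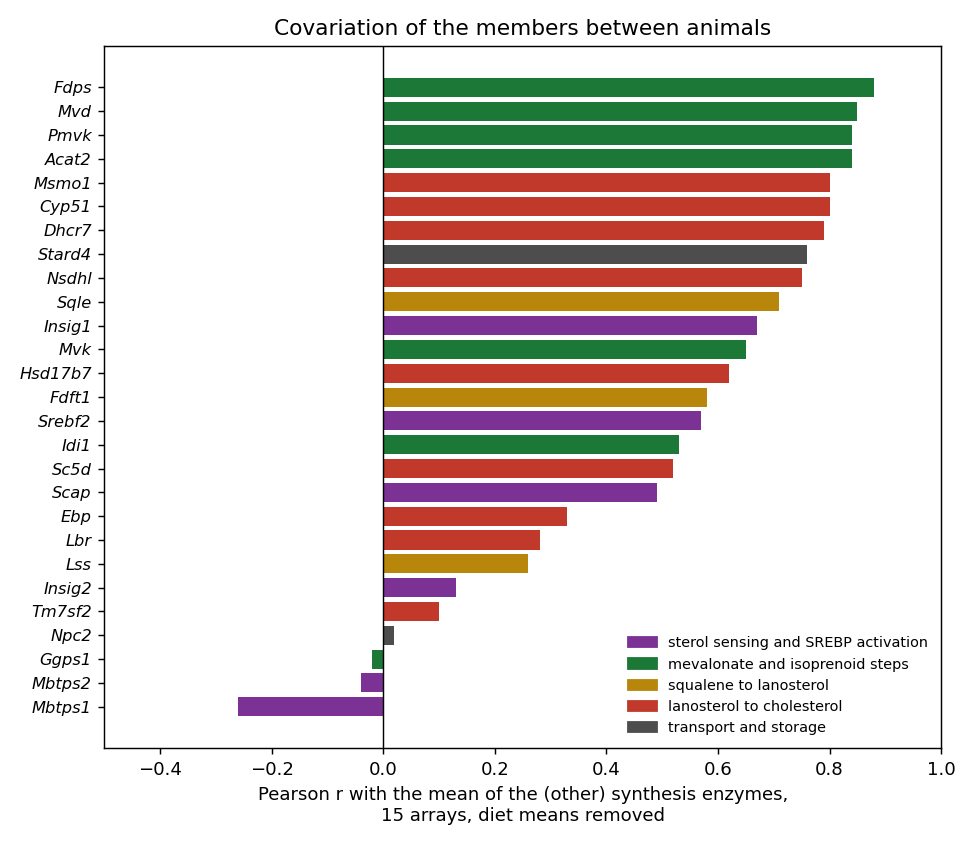
Pearson correlation of each tested member with the mean of the synthesis enzymes (itself left out) over 15 arrays after diet means were removed, coloured by role. Fdps (0.88), Mvd, Pmvk and Acat2 stand at the top, and the protease gene Mbtps1 (-0.26) at the bottom.

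Further genes of the pathway gave no call either. Of 7 tested genes that also serve sterol synthesis, 3 were lower and 4 higher with genistein and all 7 higher with daidzein, with 0 called. Tmem97, a sterol-responsive membrane protein, had means of 4.81 in control, 5.04 with daidzein and 4.29 with genistein. The isoflavones differed by -0.75 ± 0.18 for this gene (SE, interval -1.15 to -0.36, limma adjusted p = 0.126), and genistein differed from control by -0.52 (adjusted p = 0.304). Daidzein differed from control by 0.24 (adjusted p = 0.761). The order with daidzein highest and genistein lowest was that of Dhcr7, and also that of Acat2, Mvk, Idi1, Insig2 and Stard4. Por, the reductase that supplies electrons to Cyp51 and Sqle, differed by 0.39 with genistein (adjusted p = 0.529).

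The 7 tested genes of protein prenylation and of dolichol and ubiquinone synthesis, which draw on the same isoprenoids, had medians of -0.01 with genistein and -0.04 with daidzein, with 0 called and no unadjusted p under 0.05. Of the 8 oxysterol and LXR genes, which respond to sterol excess, 5 were tested and 0 called. With genistein 3 of them were lower and 2 higher than control (median -0.06), and with daidzein 4 were lower and 1 higher (median -0.03). Abca1, a cholesterol exporter, had means of 3.17 in control, 3.13 with daidzein and 4.07 with genistein, a genistein difference of 0.91 ± 0.42 (SE, limma adjusted p = 0.453). The LXR targets Lpcat3, a phospholipid acyltransferase, and Abcg1, a sterol exporter, had lower genistein means than control, with differences of -0.24 (adjusted p = 0.558) and -0.06 (adjusted p = 0.931). Nr1h3, the receptor LXR alpha, differed by -0.25 ± 0.09 with genistein (adjusted p = 0.337) and -0.16 with daidzein (adjusted p = 0.691).

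Markers of other liver cells showed no call in any comparison. The summed level of 4 Kupffer cell markers ranged from 5.54 to 5.84 in control, 5.20 to 5.68 with daidzein and 5.27 to 6.07 with genistein, and that of 5 stellate cell and fibroblast markers from 5.53 to 5.75, 5.27 to 5.61 and 5.62 to 5.77. All 5 stellate cell and fibroblast markers had higher means with genistein than in control (median 0.19) and than with daidzein (median 0.24), and their genistein sums lay above all daidzein sums. The 3 leukocyte markers (1.22 to 2.32, 1.12 to 2.43 and 1.04 to 1.62) and the 4 endothelial markers (5.08 to 5.43, 5.07 to 5.22 and 5.11 to 5.47) overlapped between diets. All 4 endothelial markers also had higher means with genistein than with daidzein (median 0.05), while 2 of them were lower than in control. Of the 4 Kupffer cell markers, 3 had lower means with daidzein than in control (median -0.28). Only 1 of them was lower with genistein than with daidzein (median 0.21). Of 3 cholangiocyte markers 1 passed the filter, with sums of 1.57 to 2.10, 1.46 to 1.77 and 1.23 to 1.73. The part of these markers in the members' values was not tested. The log2 difference between the 3' and 5' Gapdh control probe sets, a sign of RNA quality, ranged from 0.00 to 0.08 in control, -0.06 to 0.03 with daidzein and -0.06 to 0.10 with genistein. For beta-actin the 3' probe set was higher on every array, by 0.91 to 1.18 in control, 0.88 to 1.15 with daidzein and 0.88 to 1.15 with genistein. The part of RNA quality was not tested either.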

How the data were processed

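The values were the deposited table of 31099 probe sets on 15 arrays, and the authors' deposited unit is a score per probe set, inferred here to be a standardized log signal. With a scale fitted to each array, exponentiated scores stepped in whole units (636 of 636 steps checked, to within 0.001). The authors' background correction, summarisation and scale are not given in the sources used here. Scores were multiplied by 2.60, the mean scale in log2 units (range 2.54 to 2.79), so that, as the design assumed, values were on a log scale. Differences of dim probe sets depend on the subtracted background.

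Without the 57 control probe sets, arrays were quantile normalized, and the dimmest, by mean level under the 40th percentile (-0.30), were left out. The remaining 18625 entered a 3-group model (limma 3.58.1, R 4.3.3, 12 residual and 2.58 prior degrees of freedom), which was also tested on simulated data. Of 260 missing values none was in a tested probe set.

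The members and gene lists were chosen with earlier results of these data known. Values on each array are given for Srebf2, Scap, Insig1, Sqle, Msmo1, Idi1, Cyp51 and the 4 members of lowest p in each comparison. Genes of the other lists could be named only if called or among the 3 of lowest p in a comparison.

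The number of arrays limits the precision. Alternatives covered normalization, scale, filter, spread, weights, probe sets and each array left out.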

Additional observations from a re-analysis of the deposited data

Results flagged for a closer look

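In 5 of the 84 groups of 5 arrays formed by the 28 measured members and 3 diets, 1 array lay apart from the other 4 by more than 0.71 of the group's range, and chance alone gives about 1 in 20 such groups. Control 3 was high for Idi1, at 3.67 with the next array at 2.88, and for Stard4, at 2.12 with the next at 1.81. Control 1, the array with the highest median score, was low for Tm7sf2, at 4.39 with the next at 5.06, and for Mbtps2, at -0.28 with the next at 0.32. Genistein 2 was high for Scap, at 2.97 with the next at 2.52. None of these 5 genes gained a call without the array in question.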

How the results depend on the processing

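Of 891 values of the 27 members under 11 settings other than leaving out single arrays, 875 kept their direction and side of the threshold. The other 16 reversed, all of them small. Many of these values could not turn. The changed filters, the fit to only the arrays compared, the replicate block and the trended spread leave each difference as it was. With each array on its own scale, the calls and the lowest adjusted p of the members were those of the main fit (limma). The 875 is thus no measure of how firm the directions are. With the values as deposited these were Lbr (-0.02, genistein against control), Cyp51 (0.01, daidzein against control) and, between the isoflavones, Lss (-0.01), Ebp (-0.05) and Sc5d (-0.05). With median centring they were Cyp51 (0.02, daidzein against control), Ebp (-0.04) and Sc5d (-0.03, both between the isoflavones). With array weights they were Lbr (-0.05, genistein against control), Idi1 (-0.00, daidzein against control) and, between the isoflavones, Mbtps2 (0.07) and Lss (-0.01). With the mean of a gene's probe sets they were Scap (0.00, genistein against control), Mvk (-0.05, daidzein against control) and, between the isoflavones, Ggps1 (0.02) and Sc5d (-0.15). The cause was not tested.

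Leaving out 1 array reversed 22 of 81 differences in at least 1 fit. It reversed the difference or moved it by over 1.5 times for 16 of the 27 members with genistein and 24 with daidzein, each set against control, and for 20 in the comparison of the isoflavones. Those reversed against control were, for genistein, Cyp51 (-0.15 to 0.01), Lbr (-0.06 to 0.06) and Sc5d (-0.11 to 0.04), and for daidzein Acat2 (-0.02 to 0.24), Mvk (-0.00 to 0.08), Idi1 (-0.11 to 0.25), Sqle (-0.23 to 0.01), Cyp51 (-0.07 to 0.04), Tm7sf2 (-0.02 to 0.33) and Lbr (-0.05 to 0.08). Between the isoflavones these were Srebf2 (-0.16 to 0.02), Scap (-0.06 to 0.06), Insig1 (-0.79 to 0.04), Mbtps2 (-0.28 to 0.15), Fdps (-0.19 to 0.00), Lss (-0.21 to 0.22), Cyp51 (-0.11 to 0.04), Tm7sf2 (-0.08 to 0.28), Lbr (-0.07 to 0.05), Hsd17b7 (-0.21 to 0.03), Ebp (-0.06 to 0.06) and Sc5d (-0.06 to 0.08). Members called with genistein against control ranged from 0 to 1 in these fits, the 1 being Msmo1 without genistein 4. The median difference of the members ranged from -0.28 to -0.17 for genistein against control, -0.09 to -0.00 for daidzein against control and -0.19 to -0.08 between the isoflavones.

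Under those 11 settings no member was called. The limma adjusted p of Msmo1 for genistein against control ran from 0.0505 with array weights to 0.289 with median centring. Over all probe sets, the calls were 60 and 3 for genistein and daidzein set against control, and 21 for the isoflavones set against each other. In that order they numbered 80, 4 and 35 with 16 added to the intensities, 14, 2 and 3 with no filter, 124, 7 and 67 with a filter at the 60th percentile, and 0, 3 and 2 with only the arrays of the 2 diets compared. With a trended and robust spread they numbered 110, 6 and 53, with array weights 140, 7 and 74, and with median centring 34, 2 and 9. No pairing of the arrays by the replicate numbers of the titles was seen: 1 of 15 same-numbered pairs of residuals correlated above 0.1 (-0.163 to 0.109). In 9 descriptions the number is not that of the title, and pairing by the description numbers was not examined. With the title number as a replicate block the calls numbered 17, 2 and 2, with 0 members called. The lowest adjusted p (limma) was then 0.0928 for Msmo1, 0.633 for Insig1 and 0.227 for Dhcr7. Probe sets with several genes were not used, and signal over background limits dim members such as Soat1.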
